A study of Mus musculus with 16 samples.

Results

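Collagen and laminin chains are the building blocks of the extracellular matrix around cells, and their genes were followed here from whole dorsal root ganglia of mice to the RNA bound to ribosomes of the pain-sensing neurons of the same ganglia. The chains were chosen by name alone, as every gene whose symbol is that of a numbered collagen alpha chain (Col1a1, Col4a2 and so on) or of a laminin alpha, beta or gamma chain (Lama2, Lamb1, Lamc1 and so on). There were 55 of them, 44 collagen and 11 laminin chains, among 53379 gene IDs, and all 55 were listed in each of the 16 libraries.

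Collagen chains wind around each other into a rod-like triple helix. Types I, III and V build the fibrils of connective tissue, type IV forms the sheet of basement membranes, and the other types attach to fibrils, to basement membranes or to cell surfaces. Laminins are cross-shaped trimers of an alpha, a beta and a gamma chain, and they are the other sheet-forming component of basement membranes. In peripheral nerve and ganglia, basement membranes surround Schwann cells, the satellite glia that wrap neuron cell bodies, and blood vessels, while fibroblasts of the connective tissue sheaths make most of the fibrillar collagen.

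RNA-seq had been run on ganglia of naive mice of the genotype Nav1.8Cre/Rosa26fstrap on the C57BL/6J background, aged 8 to 12 weeks, all of which, in every group, carried both alleles and none of which had been treated. The Scn10a promoter, which belongs to the sodium channel gene for Nav1.8, drives Cre, and Cre switches on an EGFP-L10a ribosomal fusion protein in Nav1.8-expressing neurons, which are mostly nociceptors but not a single cell type. A pool combined the ganglia of 3 mice of the same sex, with 4 pools per sex and 24 mice altogether, and was split into a library of total RNA from whole ganglia (IN) and a library of RNA pulled down with the tagged ribosomes (IP). This makes 4 groups of 4 libraries, female IN, female IP, male IN and male IP. Scn10a was at 125 ± 12.4 scaled TPM in IN and 381 ± 46.8 in IP (SD, n = 8 pools each), a log2 change of 1.60 ± 0.08 (SE).

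Values were taken as TPM, since they sum to a constant per library. TPM are transcript abundances that correct for gene length, so that levels of different chains can be compared, but keep no read depth. Depth was therefore unknown, and no counting interval could be given. The share of nuclear protein-coding genes in the TPM ran from 9.58% to 13.3% in IN and from 44.9% to 79.5% in IP, with female pool 2 at the low end of IP. Levels below are TPM scaled between libraries so that the median gene is equal ("scaled TPM"), and a log2 change is the difference of log2(scaled TPM + 1) between IP and IN, tested with limma with the pool as a block. "Lower" and "fell" are therefore relative to the median gene, and the unscaled TPM are given beside the family counts.

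A stretch of sequence upstream of the annotated start is shown for 5 chains, because these 5 carry the contrasts of the results. Col15a1 had one of the deepest falls in the pulldown, Col3a1 became the most abundant chain there, Lamb1 departed from its partner chains, Col16a1 lost least among the well-expressed collagens, and Col25a1 was the tested chain that did not pass. They were chosen after their values were seen. The sequences are RefSeq promoter windows on GRCm38.p6, 250 bases before the start, read 5′ to 3′ on the gene's strand, which was plus for all 5. For Lamb1, 59 bases that lie in an annotated exon were left out, which leaves 191. The Col15a1 window is at chr4:47207762-47208011, that of Col3a1 at chr1:45311288-45311537, that of Lamb1 at chr12:31265043-31265233, that of Col16a1 at chr4:130047590-130047839 and that of Col25a1 at chr3:130180595-130180844. Of the Col16a1 window, 113 bases lie in an exon of Gm12963, and the Col25a1 window lies inside the annotated Col25a1 gene, upstream of a RefSeq start within it. Capitals mark the letters TATAA (the core of a TATA box), CCAAT and GGGCGG (the core of a GC box), on either strand.
Col15a1: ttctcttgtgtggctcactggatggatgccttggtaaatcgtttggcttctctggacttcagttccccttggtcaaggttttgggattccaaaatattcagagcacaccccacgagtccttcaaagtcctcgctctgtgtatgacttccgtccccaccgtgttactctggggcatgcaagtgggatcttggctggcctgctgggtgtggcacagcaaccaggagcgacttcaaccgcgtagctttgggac
Col3a1: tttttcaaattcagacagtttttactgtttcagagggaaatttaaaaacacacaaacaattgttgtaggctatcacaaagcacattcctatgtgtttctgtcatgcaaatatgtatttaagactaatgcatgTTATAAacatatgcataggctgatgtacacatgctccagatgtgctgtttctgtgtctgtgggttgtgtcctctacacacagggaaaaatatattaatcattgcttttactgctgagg
Lamb1: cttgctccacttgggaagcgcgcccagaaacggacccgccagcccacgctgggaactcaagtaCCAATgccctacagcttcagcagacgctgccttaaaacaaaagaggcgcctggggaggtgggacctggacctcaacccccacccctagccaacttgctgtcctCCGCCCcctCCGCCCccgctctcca
Col16a1: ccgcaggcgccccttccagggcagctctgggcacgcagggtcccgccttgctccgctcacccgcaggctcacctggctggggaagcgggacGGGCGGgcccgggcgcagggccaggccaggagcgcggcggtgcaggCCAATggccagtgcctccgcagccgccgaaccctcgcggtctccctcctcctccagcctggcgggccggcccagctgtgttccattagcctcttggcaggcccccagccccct
Col25a1: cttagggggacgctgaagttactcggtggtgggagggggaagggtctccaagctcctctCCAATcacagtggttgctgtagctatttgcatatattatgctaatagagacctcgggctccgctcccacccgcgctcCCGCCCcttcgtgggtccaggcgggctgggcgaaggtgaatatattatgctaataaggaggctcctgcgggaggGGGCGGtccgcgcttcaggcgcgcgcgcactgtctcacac

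The Col15a1 stretch held none of these letters, that of Col3a1 held only TATAA, whose run reads as TTATAA and so matches on both strands, and those of Lamb1, Col16a1 and Col25a1 held CCAAT and GGGCGG or its complement but no TATAA. In all, 40 of the 55 chains had a window in the RefSeq table, 44 windows among 32851. GGGCGG on either strand stood in 54.5% of the chains' windows and in 32.7% of all windows. For CCAAT the shares were 31.8% and 33.8%, and for TATAA 20.5% and 22.8%. The median GC content was 59.0% in the chains' windows and 52.4% in all. A match says only that the letters are present.

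Nearly every chain that could be tested was lower in the ribosome-bound RNA of Nav1.8 neurons than in the whole ganglion. Of the 38 chains that passed the filter on low values (a mean deposited TPM of at least 1 in IN or in IP), 37 fell, 0 rose and 1, Col25a1, did not pass. Among all 16099 genes tested, 38.9% fell, 40.5% rose and 79.4% changed in either direction. The median log2 change of the 38 chains was -1.98, against 0.02 for all genes, whose quartiles were -0.48 and 0.38. In 33 of the 38 the fall was 2-fold or more, against 13.0% of all genes. For the 37 chains that fell, every IP library was below every IN library, which held for 26.0% of all genes, and IP was below IN in all 8 pools, which held for 33.0%. In whole tissue and pulldown alike, fewer cells of a type and less RNA per cell cannot be told apart.

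**Figure D1:**
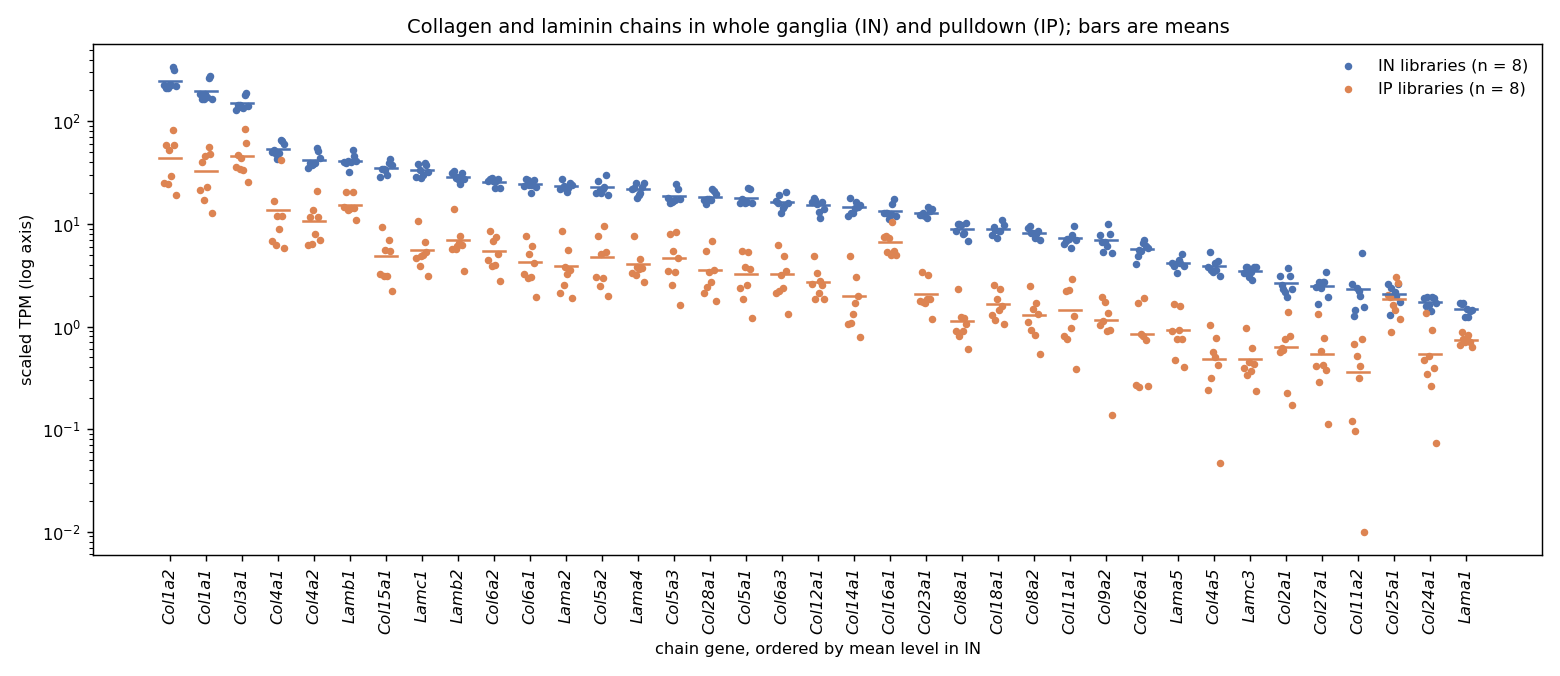
Scaled TPM of 37 of the 38 tested chains (log axis) in the 8 IN and the 8 IP libraries, 1 point per library and a bar at the mean, with chains ordered by their mean in IN. The IP points lie below the IN points for 36 chains and overlap them for Col25a1, on scaled values; in unscaled TPM 15 of the 38 were lower in IP and 6 higher.

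The size of the fall depends on the scale. In the deposited TPM without scaling, the median of all genes was 1.84 higher in IP on the log2 scale and 90.8% of genes rose, while 5.81% fell. On that scale 15 chains fell, 6 rose (among them Col16a1, Col25a1, Col3a1, Lama1 and Lamb1) and the median chain was at -0.17. That is 2.01 below the median gene, and all 38 chains were below it. As a share of the protein-coding TPM, the 55 chains together made up 0.459% ± 0.0588 in IN (SD, n = 8, range 0.414% to 0.560%) and 0.0830% ± 0.0350 in IP (range 0.0418% to 0.138%). As a share of all TPM, noncoding RNA included, they made up 0.0524% in IN and 0.0525% in IP.

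The fibrillar collagens were the most abundant chains in both fractions, and all 11 fell relative to the median gene, with a median log2 change of -1.82. Col1a1 (chr11:94936224-94953042) and Col1a2 (chr6:4504814-4541544) encode the 2 chains of type I collagen, the main fibril of connective tissue. Col1a2 was at 211 to 337 scaled TPM in IN (median 226) and at 19.2 to 81.5 in IP (median 40.9). Col1a1 ranged from 164 to 276 in IN (median 179) and from 12.7 to 56.7 in IP (median 31.5). On the scaled values neither chain had an IP library near its IN libraries. The log2 changes in limma were -2.62 ± 0.18 (SE, adjusted p = 4.3e-07) for Col1a2 and -2.68 ± 0.18 (adjusted p = 3e-07) for Col1a1. In unscaled TPM the ranges of IN and IP overlapped for both. The unscaled means were 112 in IN and 92.1 in IP for Col1a2 and 88.7 and 69.8 for Col1a1, whose unscaled log2 change was -0.43.

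Col3a1 (chr1:45311538-45349706), the single chain of type III collagen, which forms fine fibrils beside type I, fell less. It was at 128 to 188 scaled TPM in IN (median 142) and at 25.8 to 84.2 in IP (median 40.1), a log2 change of -1.76 ± 0.12 (adjusted p = 3.5e-07), and it was 0.50 higher in IP in unscaled TPM. Its IP level was 30.0% ± 8.45 of the IN level (SD over the 8 pools), where Col1a2 stood at 17.2% ± 7.25 and Col1a1 at 16.3% ± 6.56. A microRNA entry of 141 bases, AC125167.1, lies within Col3a1 on the same strand and was itself at 67.6 scaled TPM in IN and 10.1 in IP, so reads in that stretch could have been counted to either.

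The minor fibrillar chains, which regulate fibril width or belong to cartilage-type fibrils, followed. Col5a1, Col5a2 and Col5a3, the chains of type V collagen, were at 18.0, 22.7 and 18.6 scaled TPM in IN and at 3.28, 4.74 and 4.68 in IP, with log2 changes of -2.23 ± 0.14, -2.16 ± 0.17 and -1.89 ± 0.18. Col11a1 and Col11a2, which encode chains of type XI, had log2 changes of -1.82 and -1.25. The low chains Col2a1, Col27a1 and Col24a1, with IN means of 2.66, 2.49 and 1.74 scaled TPM, had log2 changes of -1.17, -1.20 and -0.87, values that the added 1 pulls toward 0. Col24a1 was uneven between pools, with an IP level of 31.4% ± 25.1 of IN.

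Among the chains of basement membranes, the common type IV pair led. Col4a1 (chr8:11198423-11312826) and Col4a2 (chr8:11312805-11449287), whose products join in the trimer of nearly all basement membranes, are annotated head to head and share 22 bases at their starts. Col4a1 ranged from 42.5 to 66.1 scaled TPM in IN (median 51.4) and from 5.88 to 41.7 in IP (median 10.4). Male pool 2 gave the highest Col4a1 value in IP, 41.7, and the next highest was 16.7 in female pool 2. Col4a2 ranged from 34.9 to 54.6 in IN (median 39.0) and from 6.29 to 20.8 in IP (median 9.81). The log2 changes were -2.16 ± 0.24 for Col4a1 and -1.97 ± 0.13 for Col4a2, both relative to the median gene, against 0.021 and 0.19 in unscaled TPM.

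Col4a5, a chain of the specialised type IV networks, was at 3.92 ± 0.709 in IN and 0.487 ± 0.311 in IP, and its IP level, 12.0% ± 6.77 of IN, was the lowest among the 38 tested chains. Col4a3, Col4a4 and Col4a6, the other specialised type IV chains, were under the filter. Col4a4 and Col4a3 lie head to head with 71 bases between them, and Col4a6 and Col4a5 with 1308.

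The multiplexins Col15a1 and Col18a1 encode basement membrane collagens that end in an endostatin-type domain. Col15a1 (chr4:47208161-47313167) had the most negative log2 change of the 38 chains with the scaling and the pseudocount of 1 used here. The order at the top was not fixed: Col14a1 fell further with a pseudocount of 0.1 (-3.02 against -2.96) and without scaling (-0.66 against -0.65), and Col1a1 under quantile normalization (-2.86 against -2.64). Its IN values ran from 28.8 to 43.2 scaled TPM (median 34.5) and its IP values from 2.21 to 9.24 (median 4.33), so that even the highest IP library was far below the lowest IN library. The log2 change was -2.72 ± 0.16 (adjusted p = 1.6e-07). Col18a1 stood at 8.83 ± 1.12 in IN and 1.65 ± 0.540 in IP, with a log2 change of -1.91 ± 0.11. Its gene body overlaps Slc19a1 on the other strand over 8825 bases, and Slc19a1 was higher in IP (13.5 against 7.51 scaled TPM).

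Type VI collagen, a beaded microfibril of the pericellular matrix, was measured through Col6a1, Col6a2 and Col6a3, and all 3 fell, with log2 changes of -2.34, -2.12 and -2.11. Col6a1 was at 24.4 ± 2.58 scaled TPM in IN and 4.26 ± 1.87 in IP, Col6a2 at 25.8 ± 2.18 and 5.41 ± 2.02, and Col6a3 at 16.3 ± 2.49 and 3.22 ± 1.62. The later type VI chains Col6a4, Col6a5 and Col6a6 were under the filter. The short-chain network collagens Col8a1 and Col8a2, known from vessel walls and membranes of the eye, had log2 changes of -2.25 and -2.04, and the IP level of Col8a1 was 12.4% ± 4.87 of IN.

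The fibril-associated collagens, which sit on the surface of fibrils, held the collagen with the smallest fall among those above 5 scaled TPM in IN. Col16a1 (chr4:130047840-130099283) ranged from 11.1 to 17.6 scaled TPM in IN (median 12.8) and from 4.93 to 10.4 in IP (median 6.31). The ranges did not overlap, the IP level was 50.4% ± 13.4 of IN, and the log2 change was -0.93 ± 0.11 (adjusted p = 2.2e-05) relative to the median gene, against 1.13 in unscaled TPM. No other annotated gene overlaps the Col16a1 gene body. The other 3 tested members, Col12a1, Col14a1 and Col9a2, had log2 changes of -2.15, -2.47 and -1.92, and Col12a1 and Col14a1, both of dense connective tissue, were at 18.0% ± 5.70 and 13.1% ± 6.97 of IN.

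The transmembrane collagens were split. Col23a1 fell from 12.8 ± 1.07 to 2.09 ± 0.778 scaled TPM, a log2 change of -2.19 ± 0.11. Col25a1 (chr3:130131501-130599877), a neuronal transmembrane collagen whose shed ectodomain is found in amyloid plaques, was the tested chain whose ranges overlapped. In the female pools 1 to 4 it was at 2.62, 1.29, 2.38 and 1.99 in IN and at 2.02, 1.95, 0.886 and 1.62 in IP. In the male pools it was at 1.72 to 2.61 in IN and, in pools 1 to 4, at 1.46, 3.04, 2.64 and 1.18 in IP.

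Col25a1 was thus lower in IP in 5 pools and higher in 3, and the IP level ran from 37.2% to 152% of IN. The log2 change was -0.15 ± 0.13 (SE, adjusted p = 0.31), a miss that is no sign of equal levels. Under quantile normalization, which raised 49.3% of all genes, it was 0.31 (adjusted p = 0.0227), and in unscaled TPM it was 1.33. The entries that overlap the Col25a1 gene body were at most 0.119 scaled TPM in IN. Of the collagens outside these groups, Col28a1 and Col26a1 had log2 changes of -2.18 and -1.91.

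**Figure D2:**
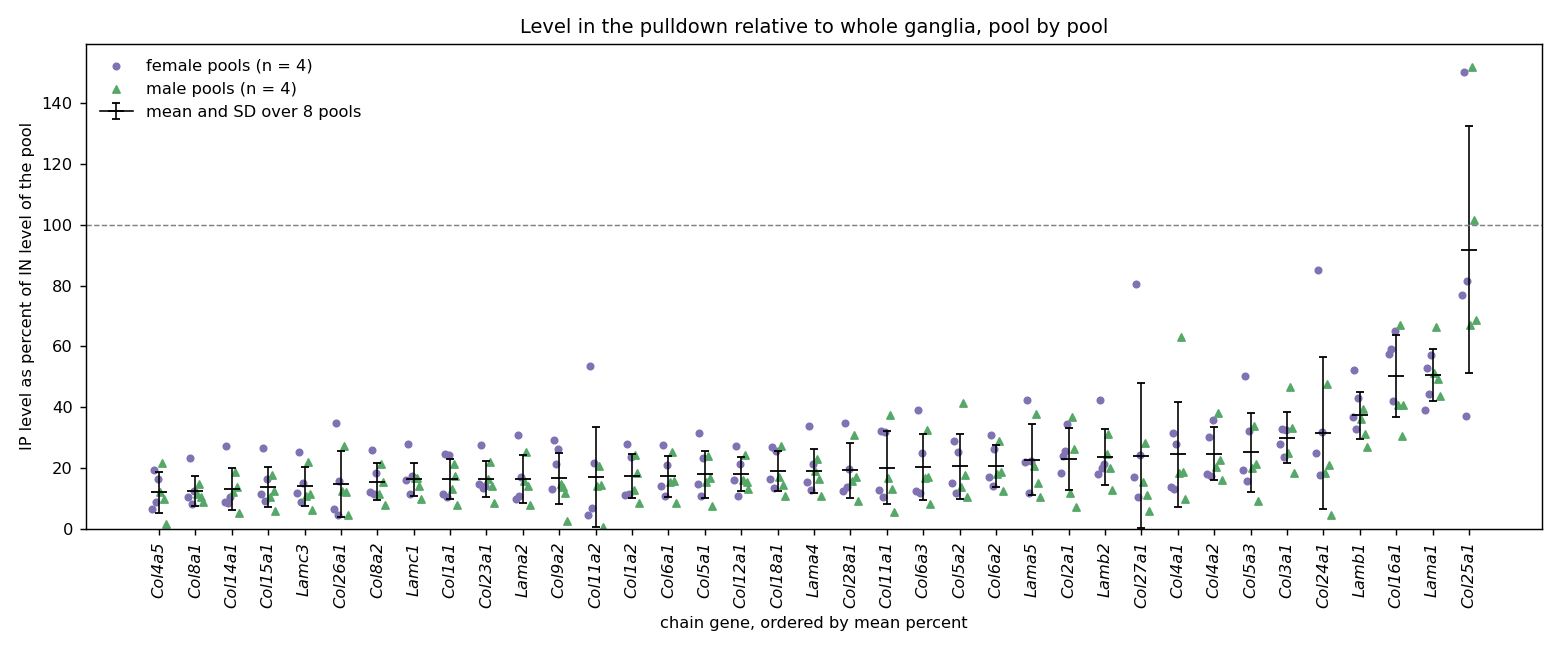
IP level as a percentage of the IN level of the same pool, from scaled TPM, for 37 of the 38 tested chains ordered by their mean, with 4 female and 4 male pools as points and the mean and SD over 8 pools. Most chains lie between 10% and 30%, Lama1 and Col16a1 near 50%, and Col25a1 spreads from 37.2% to 152%; in unscaled TPM every percentage is higher, and 6 chains were higher in IP.

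The 9 tested laminin chains all fell on the scaled values (median log2 change -1.61), although 3 of them, among these Lama1 and Lamb1, rose in unscaled TPM. By role, the beta chains were led by Lamb1 (chr12:31265234-31329644), the most abundant laminin chain in both fractions. Its values ran from 32.3 to 52.3 scaled TPM in IN (median 40.4) and from 10.9 to 20.6 in IP (median 14.4). The IP level was 37.3% ± 7.83 of IN and the log2 change -1.39 ± 0.09 (adjusted p = 2.2e-07), against 0.81 in unscaled TPM. No other annotated gene overlaps the Lamb1 gene body. Lamb2, the beta chain of the neuromuscular junction and of mature basement membranes, was at 29.0 ± 2.83 in IN and 6.92 ± 3.11 in IP, or 23.7% ± 9.23 of IN.

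The gamma chain common to most laminins, Lamc1, fell further than the beta chains. It was at 28.3 to 39.3 scaled TPM in IN (median 33.0) and at 3.11 to 10.8 in IP (median 4.95), a log2 change of -2.46 ± 0.12 (adjusted p = 5.2e-08). Lamc3 was at 13.9% ± 6.57 of IN.

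Among the alpha chains, which carry the receptor-binding domains, Lama2 (the alpha chain of Schwann cell and muscle basement membranes) and Lama4 (of vessels and perineurium) were the abundant ones. Lama2 went from 23.4 ± 2.13 to 3.91 ± 2.18 scaled TPM and Lama4 from 21.7 ± 2.67 to 4.06 ± 1.53, log2 changes of -2.41 ± 0.16 and -2.20 ± 0.13. Lama5 was at 4.13 ± 0.483 in IN and fell by 1.44. Lama1, an alpha chain of embryonic basement membranes and of the meninges, was low in both fractions and steady, at 1.23 to 1.70 in IN (median 1.46) and 0.633 to 0.881 in IP (median 0.730). Its IP level was 50.5% ± 8.59 of IN and its log2 change -0.51 ± 0.05 (adjusted p = 5.3e-06).

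The 17 chains under the filter were Col4a3, Col4a4, Col4a6, Col6a4, Col6a5, Col6a6, Col7a1, Col9a1, Col9a3, Col10a1, Col13a1, Col17a1, Col19a1, Col20a1, Col22a1, Lama3 and Lamb3. Their means were 0.00816 to 1.82 scaled TPM in IN and 0.00780 to 0.336 in IP, with Col19a1 the highest in IN. When every gene with a value was tested, 13 of these 17 fell, which makes 50 of 55 chains lower and 0 higher, where 35.8% of the 35913 genes fell. The chains that did not fall were Col6a4, Col7a1, Col10a1, Col17a1 and Col25a1, of which only Col25a1 was past the filter.

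Because nearly all chains fell, their make-up within the family was also followed, as the share of each chain in the summed TPM of the 55 chains, a quantity that does not depend on scaling between libraries. Col3a1 rose from 12.9% ± 0.447 of the family in IN to 19.1% ± 2.74 in IP (SD, n = 8), with the higher share in IP in 8 of 8 pools, and moved from rank 3 to rank 1. Col1a2 went from 21.3% ± 1.48 to 17.1% ± 2.19 and Col1a1 from 16.9% ± 1.66 to 13.0% ± 2.47, both with the lower share in IP in every pool. Lamb1 went from 3.59% ± 0.294 to 6.80% ± 1.74 and from rank 6 to rank 4, again in 8 of 8 pools.

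Smaller chains also traded places. Col16a1 went from 1.15% ± 0.0582 to 2.93% ± 0.837 of the family, Col25a1 from 0.183% ± 0.0419 to 0.780% ± 0.213 and Lama1 from 0.131% ± 0.0267 to 0.340% ± 0.119, each in 8 of 8 pools. Col15a1 went the other way, from 3.05% ± 0.251 to 1.94% ± 0.334, in 8 of 8 pools. These shares are descriptions without a test.

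Chains that join in one trimer or stand in for each other were compared directly, as the log2 ratio of their unscaled TPM within each library. In 10 such pairs with both chains past the filter, the IP minus IN difference was tested over the 8 pools with an exact two-sided sign-flip permutation test, with Benjamini-Hochberg adjustment over the 10 pairs. The smallest p that 8 pools allow is 0.0078125. Of the 10 pairs, 4 passed, 3 of them laminin pairs. The pairs Lamc1 to Lamb1 and Lamb1 to Lamb2 share a chain, so they are not separate results. All pairs were chosen with earlier results of these data known.

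The largest shift was that of Lamc1 against Lamb1, the gamma and beta chains of the same trimers. In IN there were 0.812 ± 0.0820 Lamc1 per Lamb1 (SD, n = 8 pools), with a range of 0.729 to 0.977, and in IP 0.350 ± 0.0755, with a range of 0.284 to 0.523. The ranges did not overlap. The ratio was lower in IP in 8 of 8 pools, by -1.22 ± 0.19 on the log2 scale (SD, exact permutation p = 0.0078125, adjusted p = 0.0260).

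Lamb1 also gained on Lamb2, the alternative beta chain, from a ratio of 1.45 ± 0.311 in IN to 2.38 ± 0.481 in IP. The log2 difference was 0.71 ± 0.31, higher in 8 of 8 pools (exact permutation adjusted p = 0.0260), and the pools with the smallest difference were female pool 2 and male pool 2 (0.30 and 0.34). Lama4 gained on Lama2 in 7 of 8 pools, from 0.931 ± 0.105 to 1.14 ± 0.262, a log2 difference of 0.26 ± 0.22 (exact permutation adjusted p = 0.0391).

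The collagen pairs moved less. Col6a1 fell against Col6a2, from 0.944 ± 0.0457 to 0.773 ± 0.0589, a log2 difference of -0.29 ± 0.11 in 8 of 8 pools (exact permutation adjusted p = 0.0260). The type I pair was at 0.794 ± 0.0439 Col1a1 per Col1a2 in IN and 0.757 ± 0.0806 in IP, and its difference, -0.07 ± 0.11, did not pass (exact permutation adjusted p = 0.145). The Col4a1 to Col4a2 ratio was 1.28 ± 0.0996 in IN and 1.17 ± 0.385 in IP (exact permutation adjusted p = 0.266), with male pool 2 at 2.01 in IP and the other IP libraries between 0.836 and 1.43.

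The other 4 pairs did not pass. Their log2 differences were -0.29 ± 0.28 for Col8a1 to Col8a2, 0.15 ± 0.22 for Col6a3 to Col6a1, 0.18 ± 0.29 for Lama5 to Lama4 and -0.16 ± 0.31 for Col5a1 to Col5a2. With 7 pools the smallest possible p is 0.015625, so that leaving out a pool leaves no room to pass in most cases.

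**Figure D3:**
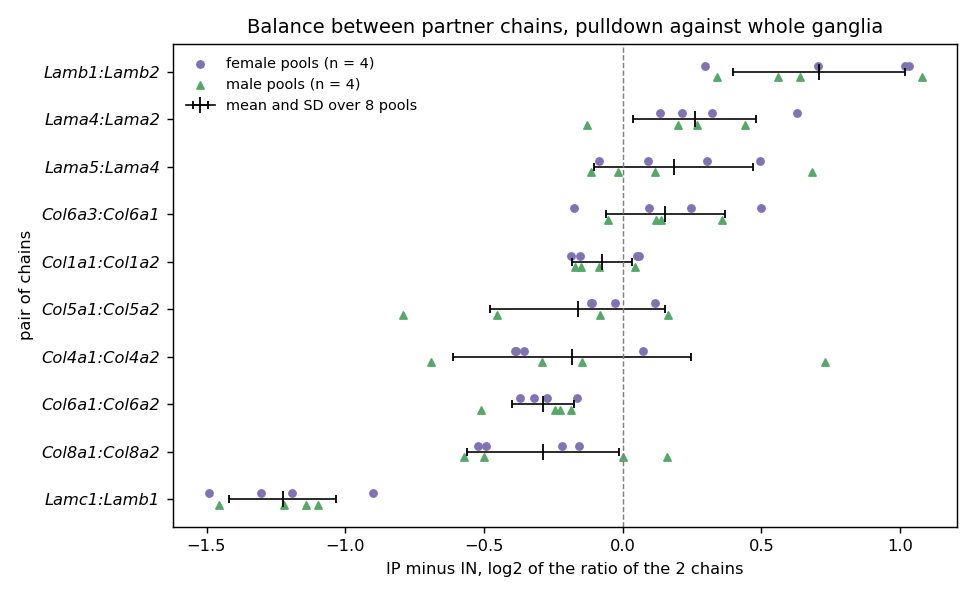
IP minus IN difference in the log2 ratio of unscaled TPM for 10 pairs of partner chains, with 4 female and 4 male pools as points and the mean and SD over 8 pools. Lamc1:Lamb1 and Col6a1:Col6a2 lie below 0 and Lamb1:Lamb2 above 0 in all 8 pools, and the points of Col1a1:Col1a2 lie on both sides of 0.

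The fall of the chains was uneven between pools in a way that touched most of them at once. The median log2 change of the 38 chains was -2.25, -1.48, -2.31 and -1.74 in female pools 1 to 4 and -2.09, -1.46, -2.21 and -2.46 in male pools 1 to 4. In 32 of the 38 chains female pool 2 had the highest IP value of the female pools, and in 37 of 38 male pool 2 had the highest of the male pools. Male pool 4 had the lowest male IP value in 37 of 38 and female pool 3 the lowest female one in 27 of 38. In IN no library led in this way (at most 16 of 38 in a female and 21 of 38 in a male library). The shares over all genes are not given here, so a trait of the chains and one of the whole library cannot be told apart. Female pool 2 also had the lowest protein-coding share in IP, 44.9%. Without female pool 2, 36 of 37 tested chains fell with a median of -2.11, and without male pool 2, 36 of 37 with a median of -2.07.

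Markers of the cells that make matrix moved with the chains. All 9 tested fibroblast markers fell (median log2 change -2.02), with a summed level of 304 to 500 scaled TPM in IN and 45.6 to 125 in IP, as did all 7 of leptomeninges (-2.33, 371 to 916 against 30.9 to 201). All 10 markers of myelinating Schwann cells fell (-2.60, 2548 to 3735 against 407 to 1070), as did all 8 of satellite glia (-2.81, 941 to 1254 against 126 to 285). Of the vessel markers, 9 of 10 endothelial (-1.55, 55.3 to 67.8 against 22.1 to 32.4) and 6 of 6 mural ones fell (-1.51, 74.3 to 80.3 against 25.1 to 40.2).

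As a share of the IN level of the same pool, the summed IP level was 11.9% to 25.0% for the fibroblast list, 10.8% to 30.3% for satellite glia, 34.4% to 51.0% for endothelium and 33.7% to 53.7% for mural cells. The IP level of the median chain, 19.1% of IN, lay within the first 2 of these ranges and below the last 2. It also lay within the ranges of the myelinating Schwann cell, leptomeninges, macrophage, perineurial and skeletal muscle lists. Each vessel sum leaned on its most abundant gene. Egfl7 (endothelial, 19.3 scaled TPM in IN) was at 96.1% of IN, and Rgs5 (mural, 42.8) at 58.9%. The next most abundant, Cldn5 (endothelial) and Tagln (mural), were at 13.5% and 13.1%, below the median chain. None of the markers of these lists was at 0 in all IP libraries.

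Further lists that could stand in the ganglion or its surroundings were also lower. All 5 tested perineurial markers (median -2.16, with a summed IP level of 17.9% to 33.8% of IN), all 7 macrophage markers (-2.25, 79.4 to 130 against 6.93 to 27.4) and all 7 skeletal muscle markers (-2.16, 40.7 to 422 against 5.22 to 190) fell, as did 1 of 2 of bone and cartilage (-0.91, 14.7 to 21.4 against 5.84 to 8.59). Of the non-myelinating Schwann cell list, which holds genes that sensory neurons also express, 4 fell and 2 rose (-0.74, 383 to 422 against 501 to 603). Of 8 large-diameter neuron markers 7 fell (-1.27, 450.0 to 563 against 187 to 297), and all 10 nociceptor markers rose (1.56, 969 to 1174 against 2567 to 3653).

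Within each sex, the pool with the smallest fall of the chains also had the smallest fall of the fibroblast, myelinating Schwann cell and satellite glia lists. For the non-myelinating Schwann cell list this held in female pools (-0.57), while in male pools pool 2 had the largest fall (-0.81). In female pool 2 the fibroblast markers were at -1.58, those of myelinating Schwann cells at -1.65, of satellite glia at -1.65, and of nociceptors at 1.10, the lowest of the 8 pools. In male pool 2 the fibroblast markers were at -1.82, myelinating Schwann cells at -2.51, satellite glia at -2.44, and nociceptors at 1.82, the highest. In male pool 4, where the chains fell most, these were -2.30, -3.48, -3.36 and 1.55. The part of these cells' RNA in the chains' IP levels was not tested.

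**Figure D4:**
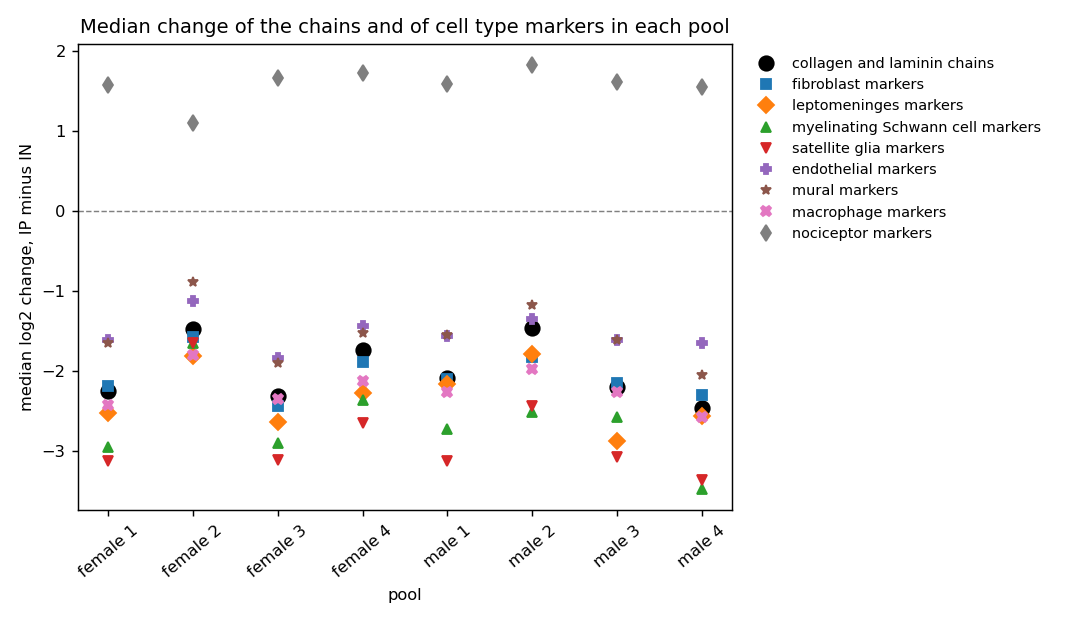
Median log2 change (IP minus IN, scaled TPM) of the 38 chains and of 8 lists of cell type markers in each of the 8 pools. The chains lie between -2.46 and -1.46, among the fibroblast, vessel, macrophage and leptomeninges markers, with female pool 2 and male pool 2 highest, while nociceptor markers lie between 1.10 and 1.82; in unscaled TPM the median of all genes is 1.84 higher.

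Genes that act with the chains were taken from lists by function, and their counts are to be read against all genes, of which 40.5% rose and 38.9% fell. The partners of collagen and laminin in basement membranes behaved like the chains. All 11 tested ones fell (median -2.11), among them Sparc, a collagen-binding matrix protein, from 451 ± 56.0 to 45.1 ± 27.6 scaled TPM (log2 change -3.45 ± 0.21) and Smoc2, its relative (-3.11 ± 0.15). The 8 small leucine-rich proteoglycans, which coat fibrils, also all fell (median -3.01), with Ogn at -3.86 ± 0.20 and Dcn at -3.22 ± 0.14.

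Of 19 tested enzymes and chaperones that modify and fold collagen, 11 fell, 6 rose and 2 did not pass (median -0.50, against 0.02 for all genes). Serpinh1, the collagen-specific chaperone HSP47, went from 49.2 ± 10.5 to 5.46 ± 1.92 scaled TPM (-2.99 ± 0.12), and the prolyl isomerase Fkbp10 fell by 1.83. The galactosyltransferases of collagen, Colgalt1 and Colgalt2, rose by 0.62 ± 0.08 and 0.55 ± 0.04, in 8 of 8 pools each. The summed level of this list in IP was 85.3% to 101% of IN.

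Processing and crosslinking genes mostly fell, 9 of 12, with 2 higher (median -1.51). Lox, which crosslinks collagen, was at 7.62% ± 5.29 of IN (-3.39 ± 0.16), and Pcolce, the enhancer of procollagen C-proteinase, fell by 2.55. Loxl4, a relative of Lox, rose by 0.70 ± 0.06 and Pcolce2 by 0.27 ± 0.05, the latter not passing when TPM were rescaled to the protein-coding total (0.07). Of the matrix metalloproteinases and their inhibitors 8 of 12 fell and 2 rose (median -0.98). Timp3, an inhibitor, and Mmp2 had log2 changes of -3.34 and -2.46. The membrane-bound Mmp24 and Mmp15 were higher by 0.50 ± 0.06 and 0.26 ± 0.06, and Mmp15 did not pass under quantile normalization (0.06) or with protein-coding rescaling (0.03).

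Receptors for the chains were near the all-gene split of 40.5% higher and 38.9% lower. Of 7 tested collagen receptors 4 rose and 3 fell (median 0.29). Adgrg1, an adhesion receptor that binds type III collagen, went from 32.9 ± 2.46 to 63.2 ± 5.51 scaled TPM (0.92 ± 0.06, adjusted p = 1.6e-07), and the collagen-binding kinase Ddr1 rose by 0.53 ± 0.06, while the related kinase Ddr2 (0.061 in unscaled TPM) and the endocytic receptor Mrc2 fell, to 21.8% ± 4.36 and 13.9% ± 6.45 of IN. Of 10 laminin receptors 5 rose and 5 fell (median -0.89). Bcam, which binds the laminin alpha5 chain, went from 170.5 ± 12.5 to 473 ± 52.5 (1.46 ± 0.07) and Sdc1 rose by 1.29 ± 0.08, while the Schwann cell receptor Adgrg6 and Sdc4 fell, with log2 changes of -2.54 and -2.49.

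Relative to the median gene, the chains fell in each sex, while without scaling 5 were lower and 4 higher in female pools and 8 lower and 5 higher in male pools. These counts are out of 37 tested chains in each sex. Of 16115 genes tested without scaling in female pools, 14992 passed, and 14257 of those (95.1%) rose. In male pools 15427 of 16061 passed, and 14615 of those (94.7%) rose. With scaling, in female pools 36 of 37 tested chains fell (33.5% of all genes, and 66.3% changed in either direction) with a median of -1.93. In male pools 36 of 37 fell (35.0% of all genes, 70.2% in either direction) with a median of -2.10. The chain that did not pass was Col25a1 in both, at -0.23 and -0.07. The sex difference of the change was tested as an interaction of sex and fraction, and 0 of 38 chains passed in limma (0.0186% of all genes), with 1 at an unadjusted p under 0.05 (2.78% of all genes). That chain was Col9a2, a fibril-associated collagen best known from cartilage, whose female minus male difference was 0.55 ± 0.18 (unadjusted p = 0.0132, adjusted p = 1.0). The next were Lamb1 (0.29 ± 0.16) and Col16a1 (0.32 ± 0.21). The estimate was positive for 34 chains and negative for 4, with a median of 0.16, against -0.0015 for all genes. These signs are not separate results, because the chains moved together between pools. In IP, female pool 2 was the highest female pool in 32 of 38 chains, and male pool 4 the lowest male one in 37. The shares over all genes are not given for these counts. A trait of the chains and one of the whole library therefore cannot be told apart.

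Within IN, 0 of 34 tested chains differed between female and male pools in limma (0.0883% of all genes did), and 7 were at an unadjusted p under 0.05 (4.97% of all genes). The smallest p were those of Col4a2, Col26a1 and Col4a1. Col4a2 was at 37.3 ± 1.72 scaled TPM in female and 47.4 ± 7.06 in male IN (SD, n = 4), a female minus male log2 difference of -0.32 ± 0.10 (adjusted p = 0.95). Col4a1 was at 48.3 ± 4.34 and 59.8 ± 7.64 (-0.29 ± 0.10), and Col26a1 at 5.02 ± 0.701 and 6.34 ± 0.490 (-0.24 ± 0.08). Within IP, 0 of 37 chains passed in limma (0.0375% of all genes) and 0 were at an unadjusted p under 0.05 (2.44% of all genes). Col9a2 came nearest, at 1.03, 1.93, 1.14 and 1.74 scaled TPM in female and 0.895, 1.36, 0.919 and 0.138 in male IP, ranges that overlap, with a difference of 0.67 ± 0.32 (unadjusted p = 0.0687), followed by Col12a1 (0.34 ± 0.23) and Col24a1 (0.40 ± 0.33).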

How the data were processed

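RNA-seq of 16 libraries (8 pools, IN and IP) was analysed. The submitters' processing notes name FastQC, STAR 2.2.1, StringTie 1.3.5 and the build GRCm38.p5, while the annotation release and the use of strand are not stated there. The deposited values were taken as TPM because each library sums to 1e+06, although the displaced header line ends in Coverage. No counts are held, so depth is unknown. The members, the gene lists, the pairs and the tests were chosen with earlier results of these data known.

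Entries of one gene ID were summed (17 to 21 per library) and 92 ERCC entries left out. Gene types and exons came from GENCODE M21. TPM were scaled by the median of ratios, and log2(scaled TPM + 1) was fitted with limma 3.58.1 (R 4.3.3; lmFit, eBayes with trend, two-sided), Benjamini-Hochberg over all tested genes, threshold 0.05. Genes with a mean deposited TPM of at least 1 in either group compared were tested. The pool was a block in IP against IN and in the interaction, and the sex comparisons had none. Partner ratios used unscaled TPM with 0.1 added. Python 3.11.15, pandas 2.3.3, numpy 2.4.6 and matplotlib 3.10.9 were used. The fit was tested on simulated data.

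The pairing of IN and IP comes from the series design text. Their deviations from the group means correlated at 0.014, 0.116, 0.198 and 0.414 in female pools and at 0.007, 0.276, 0.208 and 0.323 in male pools. No 2 libraries were identical (0 pairs). Every chain could be named; of each list with a function, up to 2 genes with the largest rise and 2 with the largest fall; of each marker list, up to 2 with the highest IN level. Of 204 listed symbols 202 were matched. Alternatives were no scaling, quantile normalization, rescaling to the protein-coding total, other pseudocounts, no filter, no block, and leaving out each pool. Protein sequences were not used here, and some results are not reported.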

Additional observations from a re-analysis of the deposited data

Results flagged for a closer look

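In groups of 4 libraries, the highest or lowest value was singled out when its gap to the nearest other value took up most of the range of the group. Of 176 groups examined 15 met this, where about 8.8 (1 in 20) would by chance alone if the groups were separate. They are not, since they share 16 libraries and the chains moved together between pools, so 8.8 is only a rough guide. In female IP, pool 2 was highest and apart for 6 chains: Lamb1 (20.6 scaled TPM, next 14.6), Lama4 (7.61, next 3.76), Lamc1 (10.8, next 4.91), Lamb2 (14.0, next 6.12), Col14a1 (4.83, next 1.33) and Col23a1 (3.42, next 1.79). The same pool was highest for Col14a1 in female IN (17.7, next 12.9) and for the log2 difference of the Col4a1 to Col4a2 ratio (0.072, next -0.36). Male pool 2 was highest in male IP for Col4a1 (41.7, next 11.9) and Col16a1 (10.4, next 5.41). Low values were those of Col15a1 (28.8) and Col8a1 (8.61) in IN of female pool 1, Lama1 (1.23) and Col16a1 (11.1) in IN of female pool 4, and Col16a1 (5.36) in IP of female pool 3.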

How the results depend on the processing

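Over the alternatives, 864 values of 62 genes in IP against IN were recomputed, and 27 of them, in 25 genes, changed direction or their side of the threshold. Leaving out a pool changed none of the 492 recomputed values, and neither did another pseudocount, no filter or no replicate block. Without the replicate block 37 chains fell and 0 rose, as with it. The numbers of chains lower in IP when a pool was left out were 36 to 37 in both sexes together, 35 to 37 in female and 34 to 37 in male pools, and higher 0. Without scaling, 15 chains were lower and 6 higher in both sexes together, 5 and 4 in female and 8 and 5 in male pools. Of all genes tested in that setting, 15558 of 16099, 14992 of 16115 and 15427 of 16061 passed, in the same order. Those that rose were 14623, 14257 and 14615, or 94.0%, 95.1% and 94.7% of the genes that passed. Under quantile normalization 1 chain, Col25a1 (0.31), was higher in both sexes together, and 1 in male pools. Without scaling the log2 change was above 0 for, among others, Lamb1 (0.81), Col5a3 (0.13), Lama5 (0.015), Col2a1 (0.054), Col3a1 (0.50), Col24a1 (0.17), Col4a1 (0.021), Col4a2 (0.19), Lama1 (0.65), Col16a1 (1.13), Lamb2 (0.12), Col25a1 (1.33) and Ddr2 (0.061), since that setting leaves the median of all genes at 1.84. Rescaling to the protein-coding total put the median of all genes at -0.20, that of the chains at -2.56 and the share of called genes that rose at 35.1% (51.0% with the scaling used). With 1 added in place of 0.1, the Col8a1 to Col8a2 ratio (-0.23) and the Lama5 to Lama4 ratio (0.19) passed. Leaving out a pool, the ratios ran from -1.27 to -1.19 for Lamc1 to Lamb1, 0.66 to 0.77 for Lamb1 to Lamb2, -0.30 to -0.26 for Col6a1 to Col6a2 and 0.21 to 0.32 for Lama4 to Lama2; most then missed the threshold, since 7 pools allow no smaller p than 0.015625. The chains' share in IN was 0.0524% of all TPM. The depth is unknown, so chains near 0 could not be given a limit.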
